A study of Mus musculus with 12 samples.

Results

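Csad and 7 further genes of cysteine and taurine metabolism (Cdo1, Ado, Cth, Cbs, Slc6a6, Baat and Slc3a1) were followed in liver RNA from the adult sons of UCP1-KO dams and of WT dams. They are 8 of the 19505 gene symbols measured, and each had exactly 1 probe set, so the rule of taking the brightest probe set of a symbol was never needed. Csad was picked because its difference by dam genotype stood out in these same arrays, and the other members were picked around it with their values known. The Csad difference is therefore described without a test. For the other members the adjusted p-values come from the fit over all 22206 probe sets.

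The 12 arrays, 1 per mouse, hold 6 sons of UCP1-KO dams (arrays 7 to 12) and 6 sons of WT dams (arrays 1 to 6). All were male C57BL/6J mice aged 4 to 5 months, kept at 23 °C on chow. UCP1 is the mitochondrial protein through which brown fat releases heat, UCP1-KO dams lack it, and both kinds of dam were mated with heterozygous sires. The labels give every son as heterozygous, so the dam's genotype cannot be told apart from which parent passed on the allele without Ucp1. They name neither litters nor dams shared by several sons, so the p-values below reflect only how these sons vary, and some may be littermates.

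Taurine is made in hepatocytes from cysteine. Cysteine dioxygenase (Cdo1) oxidises cysteine to cysteine sulfinate, which cysteine sulfinic acid decarboxylase (Csad) turns into hypotaurine, the direct precursor of taurine. A side route starts from cysteamine and uses cysteamine dioxygenase (Ado). Cysteine itself is supplied from methionine by cystathionine beta-synthase (Cbs) and cystathionine gamma-lyase (Cth), or is taken up as cystine. In the mouse liver Baat joins taurine to bile acids, and in mice bile acids are known to lower Csad mRNA through the receptor FXR and its target SHP.

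In the sons of UCP1-KO dams Csad read 13.90, 14.01, 14.69, 14.59, 13.88 and 14.18 (log2 signal, arrays 7 to 12), against 13.50, 11.35, 10.82, 10.93, 11.66 and 12.39 in the sons of WT dams (arrays 1 to 6). The groups did not overlap, and the gap between the lowest son of a UCP1-KO dam and the highest son of a WT dam was 0.38. The means were 14.21 ± 0.35 in sons of UCP1-KO dams and 11.78 ± 1.02 in sons of WT dams (SD, n = 6 each), a log2 difference of 2.43 or 5.40-fold. The values were spread over 0.81 log2 units in the sons of UCP1-KO dams and over 2.68 in the sons of WT dams, where the SD was 2.89 times as large. WT-dam array 1 accounted for the near approach of the groups, and the next highest WT-dam value, on array 6, lay over 1 log2 unit below it. In bulk liver, fewer cells that express a gene and less RNA per cell cannot be told apart.

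**Figure D1:**
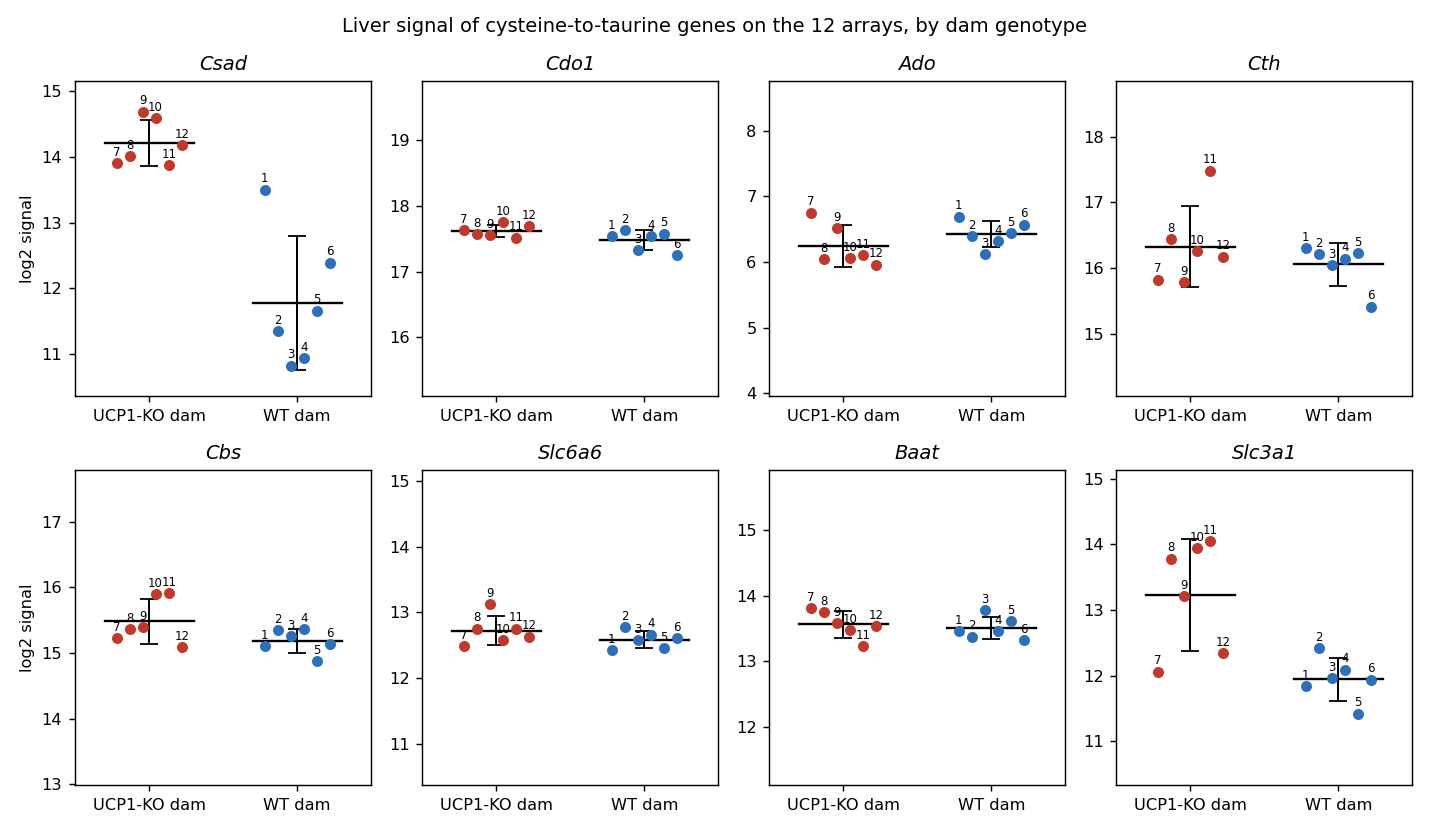
Log2 signal of the 8 members on each array (points, numbered by array), sons of UCP1-KO dams at left and sons of WT dams at right in each panel. Horizontal lines are means and bars are SD (n = 6 each), and every panel spans the same number of log2 units. Csad is the 1 panel in which the groups do not overlap, and Slc3a1 has 4 UCP1-KO-dam arrays above the WT-dam range.

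Of the 8 members, 1 had groups that did not overlap, which was Csad, against 1.05% of all probe sets. That share is given for scale only, because Csad was chosen on this contrast, and nothing is read from it. The Csad log2 difference lay between 1.78 and 2.78 in 21 alternative settings.

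The arrays also differed in the signal of negative control probe sets. Their median per array was 5.96 to 6.36 in sons of UCP1-KO dams and 6.14 to 6.62 in sons of WT dams (means 6.21 and 6.39, exact two-sided permutation p = 0.119, n = 6 each). WT-dam arrays 3 to 6, with the brighter negative controls (6.41 to 6.62), had Csad at 10.82 to 12.39, while WT-dam arrays 1 and 2, both at 6.14, had 13.50 and 11.35. Without arrays 3 to 6 the Csad difference was 1.78, and with the negative control median as a covariate it was 2.01. UCP1-KO-dam arrays 8, 10 and 11 stood farthest out on the first principal component of all probe sets, and without them the Csad difference was 2.48. These arrays had Csad at 14.01, 14.59 and 13.88, against 13.90 to 14.69 on the other 3 UCP1-KO-dam arrays, so that array 11 lay just below that range. Hepatocyte markers (10 of 10 measured) averaged 18.14 to 18.32 per array in sons of UCP1-KO dams and 18.02 to 18.26 in sons of WT dams. Kidney tubule markers (5 of 5 measured), whose tissue also makes taurine, averaged 4.95 to 5.24 in sons of UCP1-KO dams and 4.79 to 5.19 in sons of WT dams, and 4 of the 5 lay below the negative controls. All measured markers of T and B cells, neutrophils, adipocytes and exocrine pancreas lay below the negative controls. For the mean of each of the 10 marker lists the exact permutation p was 0.264 or higher (adjusted p = 0.944 for each, n = 6 each). A list mean can hide markers that differ in opposite directions: of the 6 sinusoidal endothelium markers, the scavenger receptor gene Stab2 had a log2 difference of -0.74 and the hyaluronan receptor gene Lyve1 had 0.94 (adjusted p = 0.175 and 0.191, limma), chosen after their values were seen. Their part in the Csad difference was not tested.

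Csad has 2 transcription starts with a promoter entry in RefSeq (GRCm38.p6), and the array gives 1 value for the gene, so transcripts from the 2 starts are not separated. The 250 bases before each start are shown because RNA from either would count towards the same Csad value. The outer start lies where Csad overlaps its neighbour Zfp740, and the inner start lies within the gene. Slc3a1, the other member with a large difference, is shown beside them. Capitals mark matches to 4 motifs searched on both strands: TGACG, the core of the cAMP response element; CAAAGTCCA, bound by HNF4; AAGGTCA, bound by LRH-1; and the inverted repeat bound by FXR, which is GGTCA and its reverse complement with 1 base between them.
Csad outer start, chr15:102205053-102205302, minus strand: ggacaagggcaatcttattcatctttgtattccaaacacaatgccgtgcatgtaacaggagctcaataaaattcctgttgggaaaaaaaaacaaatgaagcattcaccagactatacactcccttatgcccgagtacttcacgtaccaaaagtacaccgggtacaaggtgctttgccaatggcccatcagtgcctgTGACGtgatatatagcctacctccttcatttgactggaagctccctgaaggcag
Csad inner start, chr15:102189044-102189293, minus strand: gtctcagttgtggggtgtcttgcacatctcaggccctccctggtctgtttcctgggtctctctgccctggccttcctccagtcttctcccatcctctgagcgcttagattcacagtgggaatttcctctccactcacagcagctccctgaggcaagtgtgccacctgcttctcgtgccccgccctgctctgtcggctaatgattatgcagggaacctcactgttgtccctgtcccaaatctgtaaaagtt
Slc3a1, chr17:85028097-85028346, plus strand: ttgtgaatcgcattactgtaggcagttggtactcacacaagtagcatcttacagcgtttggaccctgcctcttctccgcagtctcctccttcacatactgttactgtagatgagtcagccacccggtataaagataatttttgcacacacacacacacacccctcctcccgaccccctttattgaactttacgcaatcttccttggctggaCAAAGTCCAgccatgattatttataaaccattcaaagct
The outer Csad window held TGACG beginning 54 bases before the start, on the strand of the gene, a motif found in 17.8% of the 32851 windows of this length. The Slc3a1 window held CAAAGTCCA beginning 39 bases before its start, also on the strand of the gene, a motif found in 0.384% of windows. The inner Csad window held none of the 4. Windows with AAGGTCA made up 4.08% and those with the inverted repeat 0.033%. A match describes letters in a window, not a bound site, and the lack of one says nothing about the factor.

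Of the genes beside Csad on its chromosome, 4 were measured and none passed the test. Zfp740, a zinc finger gene that overlaps the 5′ end of Csad, averaged 8.84 ± 0.21 in sons of UCP1-KO dams and 8.94 ± 0.15 in sons of WT dams (SD, n = 6 each), a log2 difference of -0.11 (limma adjusted p = 0.774). Next to it the integrin gene Itgb7 had a log2 difference of 0.13 (adjusted p = 0.821) and the retinoic acid receptor gene Rarg had -0.27 (adjusted p = 0.476). On the other side the nearest gene, Soat2, had no probe set of its symbol. Igfbp6, beyond it, encodes a binding protein of insulin-like growth factors and had 0.16 (adjusted p = 0.742) at a signal near the negative controls. These neighbours were chosen after the Csad values were seen.

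Cdo1, whose enzyme makes the substrate of Csad, read 17.64, 17.57, 17.56, 17.76, 17.52 and 17.70 in sons of UCP1-KO dams, against 17.54, 17.63, 17.33, 17.54, 17.58 and 17.25 in sons of WT dams. The groups overlapped within a narrow band, with 3 UCP1-KO-dam arrays above the highest WT-dam array. The log2 difference was 0.15 (95% interval -0.10 to 0.39, limma adjusted p = 0.632).

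Ado, of the cysteamine route, read 6.75, 6.04, 6.52, 6.06, 6.10 and 5.96 in sons of UCP1-KO dams, against 6.69, 6.39, 6.12, 6.32, 6.44 and 6.57 in sons of WT dams. It lay at the level of the negative controls, above their median on 2 of 6 UCP1-KO-dam arrays and on 4 of 6 WT-dam arrays, and a difference in its transcript is not detectable at that signal (log2 difference -0.18, 95% interval -0.51 to 0.14, adjusted p = 0.648, limma). Ado was the 1 member with a lower mean in sons of UCP1-KO dams.

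The transsulfuration enzymes that supply cysteine were measured at high signal. Cth read 15.82, 16.44, 15.78, 16.26, 17.48 and 16.17 in sons of UCP1-KO dams, against 16.30, 16.21, 16.04, 16.14, 16.23 and 15.41 in sons of WT dams. The highest value was on UCP1-KO-dam array 11 and the lowest on WT-dam array 6, with the remaining arrays mixed. Its log2 difference was 0.27 (95% interval -0.23 to 0.77, adjusted p = 0.668, limma), which shrank to 0.04 without array 11 and to 0.14 without array 6. Leaving out single arrays gave 0.04 to 0.38 for Cth, the highest without UCP1-KO-dam array 9. Cbs, the enzyme before it, read 15.23, 15.36, 15.39, 15.90, 15.91 and 15.09 in sons of UCP1-KO dams, against 15.10, 15.35, 15.26, 15.36, 14.87 and 15.14 in sons of WT dams. UCP1-KO-dam arrays 10 and 11 were the highest and the other arrays overlapped. The log2 difference of Cbs was 0.30 (95% interval -0.04 to 0.63, adjusted p = 0.438, limma), and 0.05 without UCP1-KO-dam arrays 8, 10 and 11.

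Slc6a6, the taurine transporter of the plasma membrane, read 12.48, 12.75, 13.12, 12.58, 12.75 and 12.63 in sons of UCP1-KO dams, against 12.42, 12.77, 12.58, 12.66, 12.45 and 12.60 in sons of WT dams. UCP1-KO-dam array 9, which also had the highest Csad, stood above all the others. The log2 difference was 0.14 (95% interval -0.14 to 0.41, adjusted p = 0.692, limma) and 0.06 without that array. Baat, which joins taurine to bile acids, read 13.81, 13.75, 13.58, 13.48, 13.23 and 13.54 in sons of UCP1-KO dams, against 13.46, 13.38, 13.78, 13.46, 13.62 and 13.33 in sons of WT dams. Its groups covered nearly the same range, with a log2 difference of 0.06 (95% interval -0.22 to 0.34, adjusted p = 0.893, limma).

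Slc3a1, the heavy subunit of a cystine and basic amino acid transporter known best from the kidney, read 12.06, 13.78, 13.21, 13.94, 14.05 and 12.34 in sons of UCP1-KO dams, against 11.84, 12.42, 11.96, 12.09, 11.42 and 11.94 in sons of WT dams. UCP1-KO-dam arrays 8 to 11 lay above every WT-dam array, and arrays 7 and 12 lay inside the WT-dam range. Arrays 8, 10 and 11, which stood farthest out on the first principal component, were the 3 highest. The means were 13.23 ± 0.85 in sons of UCP1-KO dams and 11.95 ± 0.33 in sons of WT dams (SD, n = 6 each), a log2 difference of 1.28 (95% interval 0.66 to 1.91) that did not pass (limma adjusted p = 0.0948). It was 0.59 without UCP1-KO-dam arrays 8, 10 and 11 (adjusted p = 0.566), and it passed without UCP1-KO-dam array 7 (1.52, adjusted p = 0.0262), in 1 of 21 alternatives (adjusted p = 0.0262 to 0.695). Its light subunit partner Slc7a9 read 4.34 ± 0.24 in sons of UCP1-KO dams and 4.30 ± 0.23 in sons of WT dams (SD, n = 6 each), below the negative controls in both groups. Prepl, which overlaps the far end of Slc3a1, had a log2 difference of -0.40 (adjusted p = 0.373, limma).

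Among the 7 members other than Csad, 0 passed the limma test. This is to be read beside 0.036% of all probe sets called, 0.0045% higher and 0.0315% lower in sons of UCP1-KO dams. The higher share is 1 probe set, that of Csad, which was chosen on this contrast, so nothing is read from it. Of the 7, 1, Slc3a1, had an unadjusted p under 0.05, a share to be read beside 13.1% of all probe sets.

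The other genes of these routes were described from 8 lists, of which 84 of 88 genes were measured. Apart from the members, 76 genes were measured, of which 0 passed the limma test in any of 22 settings. The setting without the dimmer 50% of probe sets held 64 of the 76. At an unadjusted p under 0.05, 2 of the 76 were higher and 10 lower in sons of UCP1-KO dams, against 7.08% and 6% of all probe sets. The median log2 difference of the 76 was -0.04, against 0.03 over all probe sets, and 44.7% of the 76 lay above 0, against 56.8% of all probe sets, the share beside which the counts above and below 0 in each list stand.

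**Figure D2:**
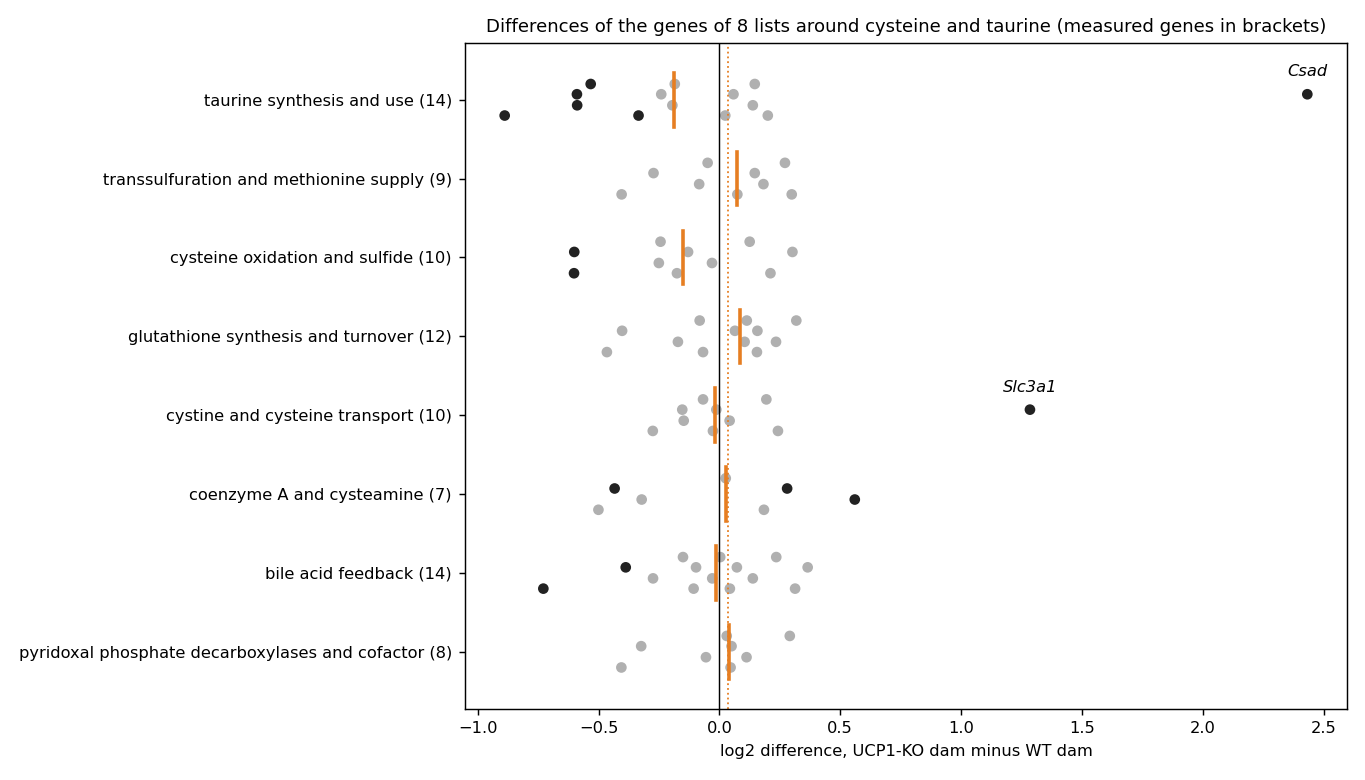
Log2 differences (sons of UCP1-KO dams minus sons of WT dams) of the measured genes of 8 lists, 1 point per gene, black where the unadjusted p is under 0.05 and grey otherwise. Orange bars are list medians and the dotted line is the median of all probe sets, 0.03. Csad at 2.43 and Slc3a1 at 1.28 lie outside the range of -0.89 to 0.56 that holds the other 76 genes and well above the other members.

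Of the 14 genes of taurine synthesis and use, all were measured, and without Csad 5 lay above 0 and 8 below, with a median log2 difference of -0.20. Of these 13 genes without Csad, 5 had an unadjusted p under 0.05, all lower in sons of UCP1-KO dams, and none passed. Over all probe sets 6% were lower at that threshold. They were named after their values were seen. Slc36a1, a proton-coupled amino acid transporter, had -0.53 (adjusted p = 0.185, limma). Slc16a6, of the monocarboxylate transporter family, had -0.89 (adjusted p = 0.259). Slc6a13, a hepatic transporter of GABA and taurine, read 14.09, 13.54, 14.53, 14.04, 13.68 and 14.23 in sons of UCP1-KO dams, against 14.41, 14.29, 14.35, 14.39, 14.38 and 14.30 in sons of WT dams, which were tightly grouped (log2 difference -0.34, adjusted p = 0.359). The low values of Slc6a13 sat on UCP1-KO-dam arrays 8 and 11.

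Acnat1, a mouse peroxisomal enzyme that joins taurine to fatty acids, read 13.21, 12.23, 13.73, 12.96, 11.96 and 13.62 in sons of UCP1-KO dams, against 13.49, 13.33, 14.18, 13.57, 13.67 and 13.01 in sons of WT dams. Arrays 8 and 11 were again the lowest, and without array 11 the log2 difference was -0.39. Its close relative Acnat2 had a log2 difference of -0.59, as had Acnat1 (adjusted p = 0.381 and 0.368, limma). The probes of these similar genes may bind the RNA of both, which was not tested, so their values cannot be counted as independent. The count of 5 was 1 without UCP1-KO-dam arrays 8, 10 and 11, 0 without WT-dam arrays 3 to 6, 2 in each of the fits without UCP1-KO-dam array 8 or 10, without WT-dam array 1, 3, 4 or 5, and with the negative control covariate, and 3 in each of the fits with a variance trend, with only the brighter probe sets, and without UCP1-KO-dam array 11. In the same list Slc27a5, which activates bile acids for conjugation, had 0.20, Fmo1, an oxidase that can turn hypotaurine into taurine, had -0.19, and Gadl1, a relative of Csad, had 0.02 (adjusted p = 0.483, 0.591 and 0.972, limma).

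Of the 10 genes of transsulfuration and methionine supply, 9 were measured, 5 above 0 and 4 below, with 0 at an unadjusted p under 0.05. Bhmt, which remethylates homocysteine with betaine, had a log2 difference of -0.41, its relative Bhmt2 had -0.27, and Ahcy, which releases homocysteine, had 0.18. Of the 10 genes of cysteine oxidation and sulfide, 3 lay above 0 and 7 below. Tst, the sulfurtransferase rhodanese, had -0.60 (95% interval -1.04 to -0.16, adjusted p = 0.227, limma) and Ethe1, the mitochondrial persulfide dioxygenase, had -0.60 (adjusted p = 0.351). Kyat1, a cysteine conjugate lyase, had -0.25 and Mpst, another sulfurtransferase, had -0.24. The UCP1-KO-dam arrays were not uniformly low for Ethe1, which read 11.91 on array 8 and 13.78 on array 11, against 12.66 to 14.04 in sons of WT dams.

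Glutathione genes, which draw on the same cysteine, showed 7 of 12 above 0 and none at an unadjusted p under 0.05. The glutamyltransferase gene Ggt6 had -0.47, Gclm, the modifier subunit of the rate-limiting ligase, had 0.23, and the synthetase gene Gss had 0.32. Chac1, which degrades glutathione, had -0.40 at a signal below the negative controls. Of the 10 cystine and cysteine transporters, Slc3a1 was the 1 gene at an unadjusted p under 0.05. The lysosomal transporter gene Slc66a1 had -0.28, the light subunit gene Slc7a8 had 0.24 and the cystine exchanger gene Slc7a11 had 0.19 at a signal below the negative controls.

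In coenzyme A metabolism, whose breakdown releases the cysteamine used by Ado, 7 of 8 genes were measured. Pank3, a pantothenate kinase at the entry of the pathway, read 11.08, 11.30, 11.21, 10.78, 10.73 and 11.08 in sons of UCP1-KO dams, against 10.56, 10.65, 10.25, 10.12, 10.71 and 10.54 in sons of WT dams. The groups did not overlap, as at 0.626% of all probe sets in this direction, and the log2 difference of 0.56 (95% interval 0.26 to 0.86) did not pass (limma adjusted p = 0.129). Pank2, another such kinase, had 0.28, the decarboxylase gene Ppcdc had -0.43 and the pantetheinase gene Vnn3 had -0.32 (adjusted p = 0.334, 0.310 and 0.555).

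Of the 14 bile acid feedback genes, 7 lay above 0 and 7 below. Slc10a1, the bile salt uptake transporter, had a log2 difference of -0.39 (adjusted p = 0.320, limma) and Cyp8b1, the sterol 12-alpha-hydroxylase, had -0.73 (adjusted p = 0.362), and these were the 2 genes of the list at an unadjusted p under 0.05. Without UCP1-KO-dam array 9, which read 11.23, the Cyp8b1 difference was -0.38. Klb, the FGF co-receptor, had 0.36 and Cyp27a1, which opens the alternative route of bile acid synthesis, had -0.28. Nr1h4, which encodes FXR, averaged 12.67 ± 0.19 in sons of UCP1-KO dams and 12.60 ± 0.30 in sons of WT dams, and Nr0b2, which encodes SHP, 13.59 ± 0.49 in sons of UCP1-KO dams and 13.28 ± 0.83 in sons of WT dams (SD, n = 6 each). Neither passed (adjusted p = 0.882 and 0.712, limma). Without WT-dam array 1, where Nr0b2 read 11.86, its log2 difference was 0.03, against 0.31 with it, and that of Nr1h4 was -0.02, against 0.07. A further list held other decarboxylases that use pyridoxal phosphate, the cofactor of Csad, and genes of that cofactor. Only its 4 genes of smallest p are named. Ddc, of dopamine and serotonin synthesis, had -0.32 and Hdc, of histamine synthesis, had -0.41. Gad1, of GABA synthesis, had 0.29 at a signal near the negative controls. Pdxp, a phosphatase of the cofactor, had 0.11 at a signal below the negative controls. None of the 8 measured genes of that list had an unadjusted p under 0.05.

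Within a group the dam's genotype is constant, so the variation among its mice is not the contrast on which Csad was chosen. The 7 other members were each correlated with Csad over the 6 arrays of each group, 14 relations in all. Pearson's r ranged from -0.48 to 0.51 in sons of UCP1-KO dams and from -0.61 to 0.93 in sons of WT dams. The highest was that of Ado in sons of WT dams (r = 0.93, exact permutation p = 0.00556, adjusted p = 0.0778, n = 6). Spearman's rho was 1.00 (exact permutation p = 0.00278, the smallest possible with 6 arrays, adjusted p = 0.0389), and r was 0.87 without arrays 1 and 6, on which Csad lay farthest from its median. In sons of UCP1-KO dams the same relation had r = -0.0013 and rho = -0.14 (exact permutation p = 0.997 and 0.803, n = 6). Ado lay at the negative control level, and WT-dam arrays 3 and 4, which had the 2 lowest values of Csad and of Ado, had the brightest negative controls, whose part in the relation was not tested. WT-dam arrays 1 and 2 and arrays 3 to 6 are too few for r within each. None of the other 13 relations had an unadjusted p under 0.05. For Cdo1, whose product Csad uses, r was 0.36 in sons of UCP1-KO dams and -0.03 in sons of WT dams (exact permutation p = 0.450 and 0.956, n = 6 each), and rho was 0.37 in sons of UCP1-KO dams and -0.14 in sons of WT dams (exact permutation p = 0.497 and 0.803).

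**Figure D3:**
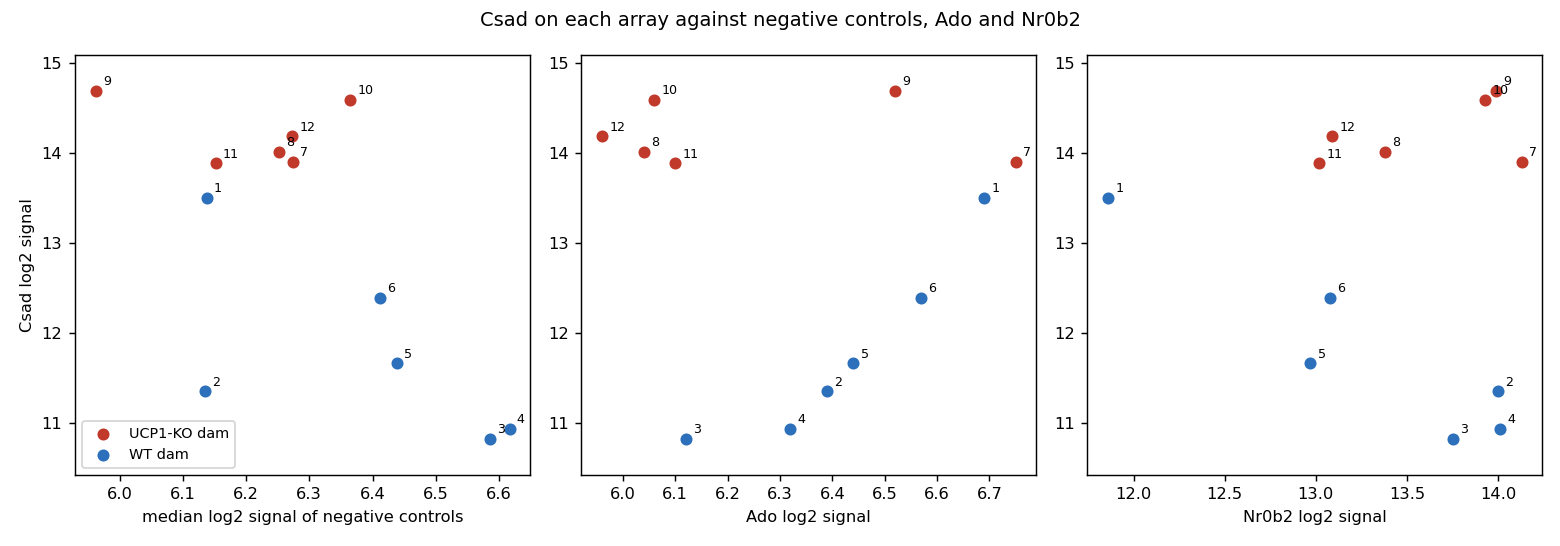
Csad log2 signal on each array (points, numbered by array) against the median signal of the negative control probe sets, the Ado signal and the Nr0b2 signal, all on the log2 scale, with sons of UCP1-KO dams in red and sons of WT dams in blue. In sons of WT dams Csad and Ado share 1 rank order, while in sons of UCP1-KO dams Csad stays between 13.88 and 14.69 at all values of Ado and Nr0b2.

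The genes most like Csad were sought over the 12 arrays after subtracting each group's mean, among 9804 genes with a mean above the negative controls. Across these genes r had a median of 0.07, with 0.54 at the 95th percentile and -0.48 at the 5th. The highest were Abhd16a, a lipid hydrolase (r = 0.90), Fbxo25, an F-box protein (0.88), P2rx4, an ATP-gated ion channel (0.87), Mrnip, a DNA repair protein (0.87), Cdh2, N-cadherin (0.85), and Stbd1, a glycogen-binding protein (0.85). The lowest were Ccdc141 (r = -0.89), 9930111J21Rik1 (-0.85), the imprinted noncoding RNA Kcnq1ot1 (-0.83) and the receptor gene Tnfrsf14 (-0.83). These are extremes picked from many genes and carry no test. Without WT-dam arrays 1 and 3, the arrays on which Csad lay farthest from its group, the same 10 genes had r of 0.63 to 0.77 in size.

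Abhd16a read 9.23, 9.47, 9.58, 9.46, 9.34 and 9.62 in sons of UCP1-KO dams, against 10.06, 9.52, 9.46, 9.52, 9.58 and 9.78 in sons of WT dams. Its highest values were on WT-dam arrays 1 and 6, the same arrays that had the highest Csad among the sons of WT dams. It did not share the difference between groups (log2 difference -0.20, adjusted p = 0.540, limma). Stbd1 read 7.88, 7.39, 8.09, 7.80, 7.45 and 7.77 in sons of UCP1-KO dams, against 7.38, 6.80, 6.53, 6.59, 7.02 and 7.19 in sons of WT dams. The groups of Stbd1 did not overlap either, as at 0.626% of all probe sets in this direction. Its log2 difference was 0.81 (adjusted p = 0.0767, limma). Its signal was low, above the negative control median on 4 of 6 WT-dam arrays and 6 of 6 UCP1-KO-dam arrays. Ccdc141, the lowest in likeness, read 9.23, 9.64, 8.66, 9.49, 9.69 and 8.78 in sons of UCP1-KO dams, against 8.65, 9.98, 10.89, 10.80, 9.70 and 9.23 in sons of WT dams. Its values were highest on WT-dam arrays 3 and 4, where Csad was lowest.

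**Figure D4:**
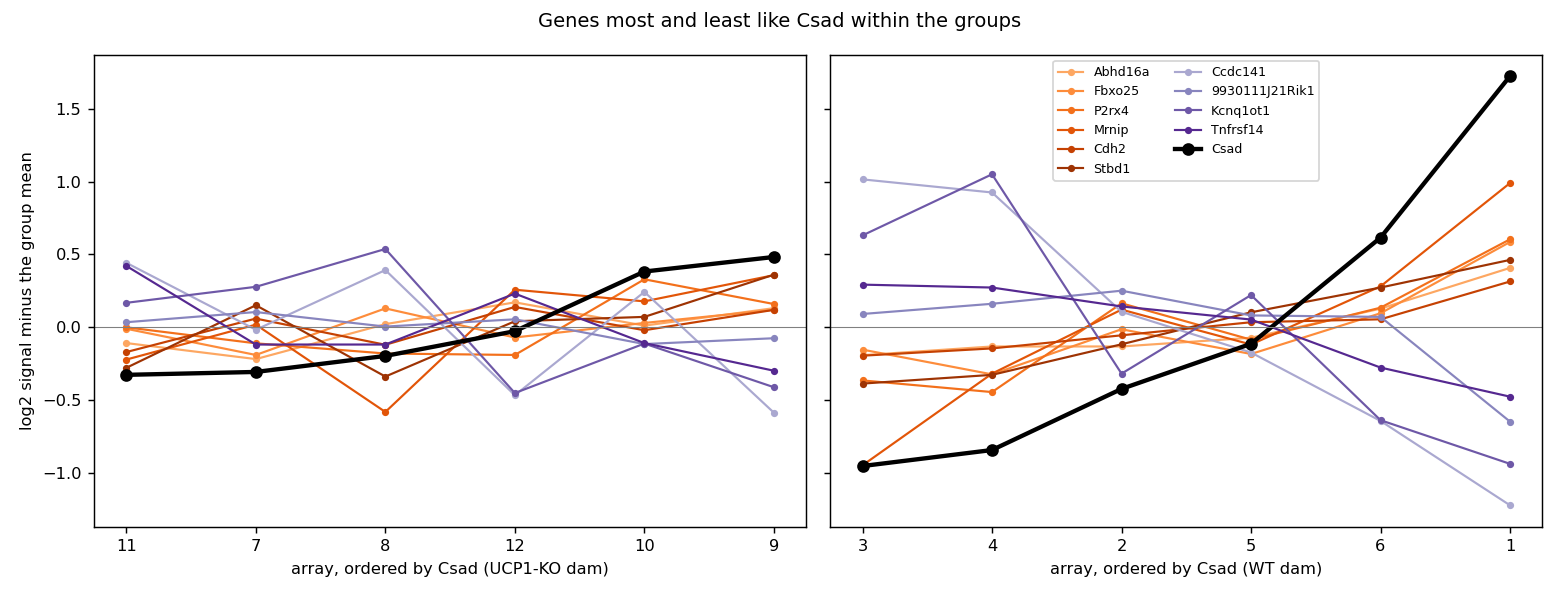
Log2 signal minus the group mean of Csad (black), the 6 genes most like it (orange shades) and the 4 least like it (purple shades), with arrays ordered by Csad within sons of UCP1-KO dams (left) and sons of WT dams (right). The range of Csad is 0.81 at left and 2.68 at right, and WT-dam array 1 is the extreme point of most lines.

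By the same measure the other members lay between the 5th and 95th percentiles, with r of 0.47 for Ado, 0.03 for Cdo1, -0.04 for Slc3a1, -0.15 for Slc6a6, -0.16 for Cbs, -0.17 for Cth and -0.29 for Baat. Among the bile acid feedback genes Nr0b2 had r = -0.68, lower than all but 0.643% of the 9804 genes, and Nr1h4 had -0.58. In sons of WT dams Nr0b2 read 11.86 on array 1, where Csad was highest, and 12.97 to 14.01 on the other arrays. In sons of UCP1-KO dams it read 13.02 to 14.13, with an r of 0.46 within that group. Without WT-dam arrays 1 and 3 the r of Nr0b2 over both groups was -0.26 and that of Nr1h4 -0.17. The size of r over both groups thus depended on those arrays. Within sons of WT dams r was -0.93 for Nr0b2 and -0.61 for Nr1h4. Within sons of UCP1-KO dams, which include neither array, Nr1h4 had r = -0.48.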

How the data were processed

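Liver RNA was hybridised to 1 expression array per mouse. The deposited values are log2 signals per probe set, made by the authors. The submitters' processing notes name RMA and Transcriptome Analysis Console, while versions, RMA variant and genome build are not given in the sources used here. RMA evens out the arrays, so a shift of most genes one way would be reduced, and dim signals are compressed. Precision is limited by the 12 arrays.

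The 6640 control rows (5222 negative controls) were left out of the tests. Each of 22206 probe sets, of which 19572 have 1 symbol in the platform annotation, entered lmFit and eBayes of limma 3.58.1 (R 4.3.3, two-sided) unfiltered, with dam genotype as the only term. Adjusted p-values use Benjamini-Hochberg over all probe sets, and under 0.05 is a call.

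The members and lists were chosen with earlier results of these data known. The text names the members, up to 4 genes of smallest p per list (or those that passed) and the 6 genes most and 4 least like Csad; 5 taurine genes with low p, Slc27a5, Fmo1, Gadl1, Slc7a9, Nr1h4, Nr0b2 and the neighbouring genes were added after their values were seen. Correlations used scipy 1.17.1 with exact permutation and adjustment over 14 relations. Promoters are from RefSeq, which had windows for 4 of 8 members, of which 2 are shown. Alternatives were 2 scalings, a filter on dim probe sets, named probe sets alone, averaging per symbol, a variance trend, a negative control covariate, and leaving out arrays.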

Additional observations from a re-analysis of the deposited data

Results flagged for a closer look

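In 88 groups of 6 arrays (44 named genes), 4 values lay far from the rest of their group, by a test that flags about 1 group in 20 by chance. Cth read 15.41 on WT-dam array 6, against 16.04 to 16.30 on the other 5 WT-dam arrays. Cyp8b1 read 11.23 on UCP1-KO-dam array 9, against 12.96 to 13.84 on the others of its group. Slc66a1 read 10.40 on WT-dam array 3, against 9.51 to 9.78, and 9930111J21Rik1 read 8.68 on WT-dam array 1, against 9.40 to 9.58.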

How the results depend on the processing

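Of the 8 called probe sets, 1, that of Csad, was higher in sons of UCP1-KO dams. The count of 8 became 32 with the dimmer 50% of probe sets left out and 22 with a variance trend and robust estimation. It was 2 with the negative control median as a covariate and 0 without WT-dam arrays 3 to 6. It was also 0 without UCP1-KO-dam arrays 8, 10 and 11, a setting chosen after seeing the data. Leaving out single arrays gave 1 (UCP1-KO-dam array 8) to 112 (WT-dam array 2), with 54, 4 and 5 without UCP1-KO-dam array 7, 9 or 11 and 3 and 2 without WT-dam array 3 or 6. Quantile normalization gave 12, of which 3 were higher. Csad stayed higher in all 21 alternatives (1.78 to 2.78), which is no evidence of stability because Csad was chosen on this contrast. Its adjusted p was under 0.05 in 16 of the 21 and not in the other 5. Those 5 included the fits with a variance trend and with the negative control covariate. In the rest, the arrays dropped were WT-dam 3 to 6, UCP1-KO-dam 8 alone, or UCP1-KO-dam 8, 10 and 11 together. Of the other members, Cth turned to -0.13 without UCP1-KO-dam arrays 8, 10 and 11, and the rest kept their direction in every alternative run. The correlation of Csad with Ado in sons of WT dams passed after quantile normalization (r = 0.956, adjusted p = 0.019, exact permutation, n = 6) and after centring (r = 0.954, adjusted p = 0.019), and in sons of UCP1-KO dams it turned to 0.052 after centring. The cause was not tested. Correlations were not rerun on 5 arrays. No paired analysis was possible because the groups share no replicate numbers.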
